A study of Mus musculus with 2 samples.

Results

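Histone-high cells were studied in single-cell mRNA sequencing (scRNA-Seq) of bone marrow-derived monocytes/macrophages on their way to osteoclasts (OCs), the cells that resorb bone. They were chosen by their own counts, as the 10% of the cells of each library with the largest share of transcripts in 8 histone genes, namely the linker histones H1f5, H1f4, H1f1 and H1f3 and the core histones H2ac8, H2ac20, H2ac24 and H4c4. Transcripts were counted as unique molecular identifiers (UMIs), so that each captured mRNA molecule is counted 1 time. A cell was kept with at least 500 detected genes, at most 10% mitochondrial UMIs, at least 5000 UMIs and fewer than 3 UMIs over the OC genes Ctsk, Mmp9 and Dcstamp. Of 11932 cells past the gene and mitochondrial filters, 9902 were kept, and 989 of these were histone-high cells, 484 of 4848 in the control library and 505 of 5054 in the mutant library. The remaining kept cells of each library are called the rest. The cells were proposed as S-phase macrophages, and how far their other transcripts bear that name is given below.

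The control library was labelled only as control, and the mutant library as LysM-Cre;Arid1afl/fl. In these animals Cre recombinase is expressed from the Lyz2 locus of myeloid cells and removes the floxed segment of Arid1a, which encodes a BAF (SWI/SNF) component that repositions nucleosomes. Both cultures received M-CSF at 50 ng/ml and RANKL at 100 ng/ml, the growth factor and the differentiation signal of the OC lineage, and were taken the day after induction, per the study's methods. Neither the number nor the age of the animals behind a library is given in the labels. There was 1 library per genotype, so no test across samples was possible, and a difference between the libraries cannot be told apart from a difference between animals, cultures or runs. All intervals below are 95% intervals that cover counting error only.

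Replication-dependent histone genes supply the histones that package newly copied DNA, and their mRNAs accumulate during S phase and are degraded when it ends. These mRNAs differ from nearly all others in that most end at a short stem-loop, bound by the stem-loop binding protein Slbp, rather than in a poly(A) tail. A further class, the histone variants such as H3f3b and H2ax, is expressed outside S phase too. In bone marrow cultures, M-CSF drives myeloid precursors through the cell cycle before RANKL directs them towards the OC fate.

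The stem-loop was searched in the 100 bases after the stop codon, as 6 paired bases that begin with GG, a loop of 4 bases without G, and the paired strand. It was present in 62 of 63 annotated replication-dependent histone genes, 22 to 59 bases after the stop codon, and was not found in H2bc21. In 39 genes it had the same letters. Below it is shown in capitals, with 5 bases on either side, for genes that the results turn on: H1f5, H2ac8 and H4c4 belong to the score, H3c3 followed it, and H2bc4 did not (GRCm39, 5′ to 3′ on the gene's strand).
H1f5: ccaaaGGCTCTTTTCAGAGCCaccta
H2ac8: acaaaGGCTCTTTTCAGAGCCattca
H4c4: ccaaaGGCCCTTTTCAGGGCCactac
H3c3: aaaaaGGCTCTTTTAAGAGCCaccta
H2bc4: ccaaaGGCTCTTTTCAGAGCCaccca
They lie at chr13:21964002-21964027 (minus strand), chr13:23754837-23754862 (minus), chr13:23765928-23765953 (plus), chr13:23929025-23929050 (minus) and chr13:23868625-23868650 (plus). Thus H2bc4, whose transcript level went against the others (below), had the same stem-loop letters as H1f5 and H2ac8.

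The score, the share of a cell's UMIs in the 8 genes, chose the cells, so its values are a description. The lowest score among the histone-high cells was 0.211% in the control library and 0.172% in the mutant library, and the highest was 0.575% and 0.731%. At the cutoff the 3 lowest members had 0.2106%, 0.2107% and 0.2107% and the 3 cells just outside had 0.2105%, 0.2104% and 0.2103% in the control library, so the boundary cut a continuous range. In the mutant library the 3 lowest members had 0.1723%, 0.1723% and 0.1727% against 0.1719%, 0.1716% and 0.1714% outside. The median member held 76 score UMIs in the control library and 63 in the mutant library, and the median cell of the rest held 3 and 2.

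**Figure D1:**
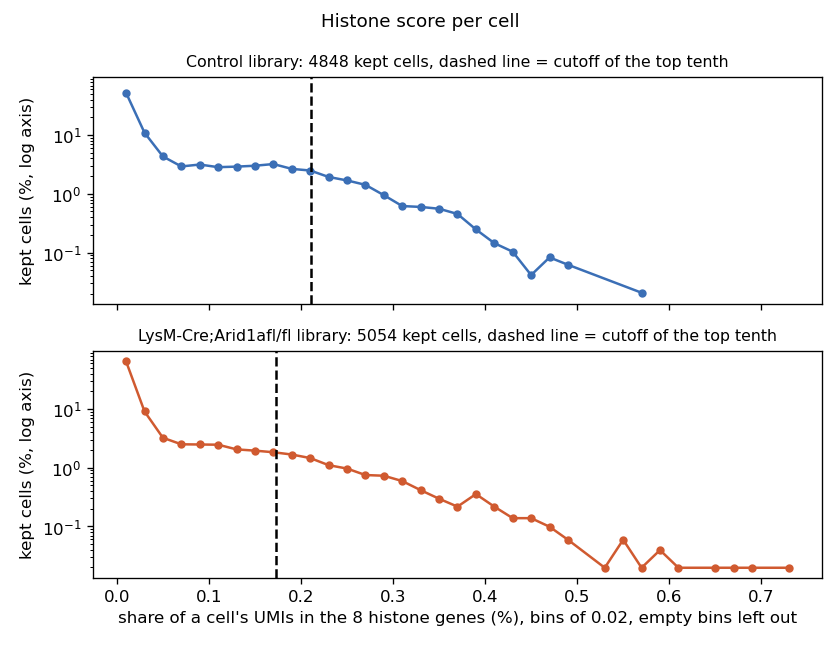
Share of kept cells (%, log axis) against the histone score in bins of 0.02 for each library, with the cutoff of the top 10% as a dashed line. Most cells lie near 0 and the score falls off without a gap at the cutoff, with points at the middle of filled bins, and the mutant library reaches higher scores (0.731%) than the control library (0.575%) although its cutoff is lower.

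The mutant library held fewer cells at the control level. Of its kept cells 353, or 6.98% (6.30 to 7.72, exact binomial), were at or above the control cutoff, and 747 of the control cells, or 15.4% (14.4 to 16.5), were at or above the mutant cutoff. Cells with no score UMI at all, by coincidence also 747 in the control library, made up 15.4% of control (14.4 to 16.5) and 20.9% of mutant cells (19.7 to 22.0), at median depths of 18673 and 16814 UMIs. At the other end the mutant library was the more unequal, and its top 10% held 53.1% of all score UMIs against 42.9% in the control library. With linker genes alone as the score, 4.39% of mutant cells reached the control cutoff, and with core genes alone 10.1%.

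Histone-high cells were somewhat deeper than the rest. Their median was 27371 UMIs and 4856 genes in the control library, against 22770 UMIs and 4244 genes in the rest, while mutant histone-high cells had 25654 UMIs and 4792 genes, against 21849 UMIs and 4289 genes. Doublet calls took 3.72% (2.22 to 5.81) of control and 4.36% (2.75 to 6.52) of mutant histone-high cells, against 4.79% (4.17 to 5.47) and 4.66% (4.07 to 5.31) of the rest. The libraries' barcode lists shared 8 barcodes, none of them among the histone-high cells.

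Levels are UMIs summed over cells and scaled to 1000000 UMIs (CPM). Of the linker genes of the score, H1f5 had 978 CPM (962 to 995) in control histone-high cells and 146 (144 to 148) in the rest. In the mutant library it stood at 662 CPM (648 to 676) and 58.3 (56.9 to 59.7). Of the core genes, H2ac8 had 480 CPM in control histone-high cells against 84.2 in the rest, and 674 against 71.6 in the mutant library. All 8 genes were detected in 320 control members (66.1%) and 233 mutant members (46.1%), and in 7.13% and 2.48% of the rest.

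The make-up of the score differed between the libraries. Linker histones held 56.3% of the score UMIs of control histone-high cells (55.8 to 56.8) and 45.4% of those of mutant ones (44.9 to 45.9), and the same order was seen in the rest, at 51.0% and 38.7%. Between single cells the linker share ran from 41.0% to 70.0% in the control library and from 28.6% to 62.0% in the mutant library (5th to 95th percentile of members). These levels compare a gene with itself between libraries. Different histone genes were not ranked by level, since the 3′ kit primes on poly(A) while most histone mRNAs end at the stem-loop, and how the counting split reads among near-identical histone copies was not stated.

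Outside the score, nearly every other replication-dependent histone gene was higher in the histone-high cells, a measure the score did not use. Of 55 such genes 47 had at least 50 UMIs in all, and 45 of these were higher in both libraries, with a median log2 ratio of histone-high over rest of 1.99 in control and 2.57 in mutant cells. Summed over the list they rose from 296 to 989 CPM in the control library (log2 1.74, 1.71 to 1.77) and from 246 to 1186 in the mutant library (2.27, 2.24 to 2.30). Choosing the cells on a random 50% of their UMIs and reading the levels from the other 50% gave 1.70 and 2.25. In each class the median was well above 0, at 2.44 and 2.77 for 10 H2A genes, 2.02 and 2.58 for 15 H2B genes, 1.80 and 2.30 for 11 H3 genes, and 1.72 and 2.11 for 10 H4 genes in the control and mutant library.

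H3c3, which encodes the S-phase form of H3, had 91.1 CPM in control histone-high cells and 18.6 in the rest, and 148 and 20.8 in the mutant library. H3c6 had 102 and 20.5 CPM in the control library and 118 and 14.1 in the mutant library. H2ac10 showed the largest log2 ratio among those over 10 CPM in the mutant library, 3.51 (3.36 to 3.65), with 68.9 against 6.06 CPM, and 2.36 in the control library. H1f2, the linker histone left out of the score, rose less, by 1.35 (1.26 to 1.44) and 2.02 (1.92 to 2.13). Several of these genes overlap another gene on the opposite strand, such as H3c3 with H2bc3 and H4c4 with H2bc6, and whether counting used the strand was not stated.

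H2bc4 and H3c15 went the other way. H2bc4 had 42.4 CPM in control histone-high cells against 57.7 in the rest (log2 -0.44, -0.57 to -0.32) and 28.6 against 63.9 in the mutant library (-1.16, -1.31 to -1.01). H3c15 was sparse, with 13 UMIs in control and 5 in mutant histone-high cells, and its log2 ratios were -1.10 (-2.04 to -0.30) and -1.39 (-3.04 to -0.12). H4c9 had smaller ratios than the median of these genes, at 0.22 (0.06 to 0.37) and 0.70 (0.53 to 0.87), and H2bc21 had 0.68 (0.12 to 1.20) and 0.51 (-0.13 to 1.11). Among cells thinned at random to 5000 UMIs, H2bc4 was found in 16.7% of control histone-high cells, 21.01% of the rest and 32.4% of the 10% of cells lowest in cell cycle transcripts, and in 11.7%, 22.0% and 41.0% of mutant cells (56.2%, 53.0% and 65.3%, and 38.0%, 49.8% and 71.3%, before thinning). H2bc4 transcripts were thus most often seen where H1f5 was nearly absent, since H1f5 was found in 0.620% of control and 1.39% of mutant cells of that lowest 10% (3.099% and 3.37% before thinning), whose median depths were 21379 and 21179 UMIs.

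**Figure D2:**
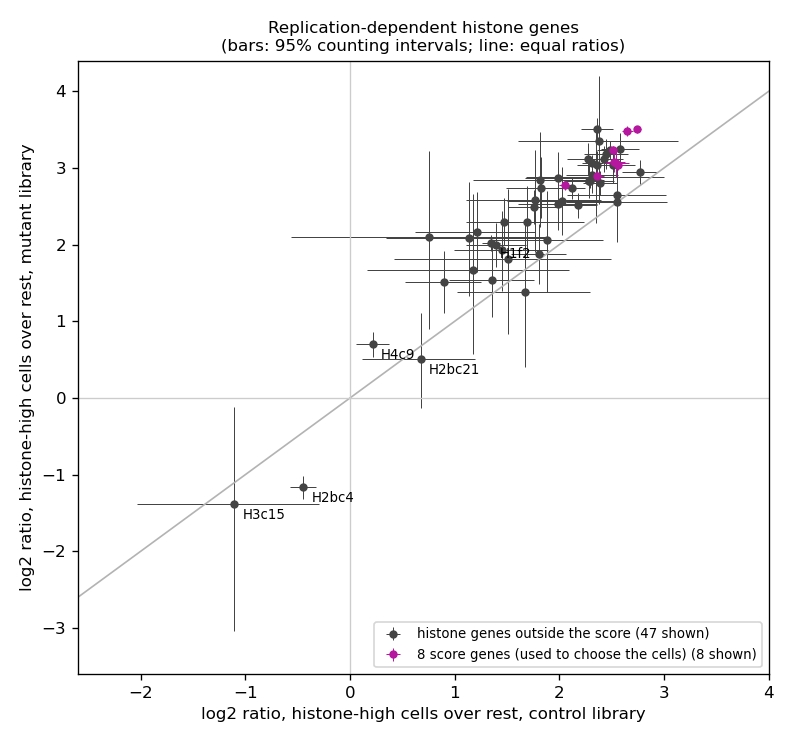
Log2 ratio of histone-high cells over the rest in the mutant library against that in the control library, for each replication-dependent histone gene with at least 50 UMIs, with 95% counting intervals. Genes outside the score (dark) cluster with the score genes, mostly above the line of equal ratios, while H2bc4 (-0.44 and -1.16) and H3c15 lie below 0 in both libraries.

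H2bc4, H2bc21, H3c15 and H4c9 all had annotated ends over 200 bases from the stop codon. In the GENCODE annotation H2bc4 ends 9568 bases after its stop codon, H2bc21 2192, H3c15 423 and H4c9 376. A long annotated end did not separate the genes by itself, since H1f4 ends 1209 bases and H4c4 822 bases past the stop codon and both are score genes. Over the 18 genes outside the score with an end at least 200 bases away the median log2 ratio was 1.82 in control and 2.51 in mutant cells, and over the 29 with a nearer end it was 2.28 and 2.64.

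Among the variant histones, whose genes are expressed outside S phase too, H2ax, the variant that is phosphorylated at DNA breaks, was the most raised. It went from 65.2 to 139.7 CPM in control (log2 1.10, 1.03 to 1.17) and from 38.6 to 132 in mutant cells (1.77, 1.69 to 1.85). H3f3b had 2275 CPM against 1534 in the rest of the control library (0.57, 0.55 to 0.59) and 2627 against 1452 in the mutant library (0.86, 0.84 to 0.87). H1f0, a linker histone linked to differentiation, had 35.4 CPM against 22.6 in control cells and 74.3 against 25.3 in mutant cells. H2az2 had log2 ratios of 0.25 (0.18 to 0.31) and 1.17 (1.12 to 1.22), whereas H2aj was lower in both libraries (-0.21 and -0.22). Summed over 11 variants the ratio was 0.30 in control and 0.61 in mutant cells.

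Across the 7157 genes that averaged 10 CPM or more, 4.78% were at least 1.5-fold higher (a log2 ratio of 0.58) and 2.61% at least 1.5-fold lower in control histone-high cells, and 5.44% and 1.08% in mutant ones. The genes past 1.5-fold upward numbered 342 and 389, with 259 in both libraries, or 75.7% and 66.6% of either list. Downward there were 187 and 77, with 28 in both, or 14.97% and 36.4%. The median gene stood at log2 0.07 in control and 0.02 in mutant cells.

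The replication machinery was raised with the histones. In the DNA synthesis list, 20 of 28 genes over 10 CPM were at least 1.5-fold higher in control and 18 in mutant histone-high cells, none was 1.5-fold lower in either, and the median log2 ratio was 0.71 in both. Its summed level went from 1617 to 2714 CPM (0.75, 0.73 to 0.76) in control and from 1592 to 2749 CPM (0.79, 0.77 to 0.80) in mutant cells. Rrm2, the small subunit of ribonucleotide reductase that makes deoxynucleotides, had 158 CPM against 74.7 in the rest of the control library (1.08, 1.01 to 1.15) and 163 against 52.4 in the mutant library (1.64, 1.57 to 1.71). Tyms and Tk1, which supply thymidylate, had ratios of 0.90 and 0.99 in control and 1.27 and 1.44 in mutant cells. Pola1, the catalytic subunit of the priming polymerase, had 1.07 and 1.23. The sliding clamp Pcna rose by the same amount in both, from 281 to 435 CPM and from 329 to 510.5 CPM (0.63 each). After thinning to 5000 UMIs, Rrm2 was found in 56.2% of control histone-high cells against 25.5% of the rest and 1.24% of the lowest 10%, and in 54.1%, 18.7% and 0.198% of mutant cells (95.9%, 58.6% and 7.64%, and 90.3%, 44.9% and 1.98%, before thinning).

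The origin licensing list, which also holds genes that act at firing origins and forks, rose less. In the origin licensing list 8 of 21 genes over 10 CPM were at least 1.5-fold higher in control and 4 in mutant histone-high cells, and the summed log2 ratios were 0.53 (0.51 to 0.55) and 0.36 (0.34 to 0.38). The helicase loaders Cdc6 and Cdt1, which act before replication starts, were not raised in either library, with ratios of -0.16 and -0.03 in control and -0.41 and -0.41 in mutant cells. The helicase subunits Mcm5 and Mcm6 rose by 0.68 and 0.71 in the control library, but by 0.42 and 0.21 in the mutant library. Clspn and Dbf4, which act at firing origins and forks, were raised alike, by 0.91 and 0.80 in control and 0.86 and 0.88 in mutant cells.

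Genes of histone supply itself were raised in part. Slbp had 132 CPM against 80.3 in the control rest (0.71, 0.64 to 0.79) and 123 against 80.1 in the mutant rest (0.62, 0.54 to 0.70). Eri1, an exonuclease that trims and degrades histone mRNA, had 0.60 and 0.72. Npat and Casp8ap2, of the histone locus body where these genes are transcribed, had 0.39 and 0.12 in control and 0.21 and 0.09 in mutant cells. Of 13 genes of histone mRNA formation 5 passed 1.5-fold in each library. They were Slbp, Eri1 and the cell cycle genes Ccne1 (0.97 and 1.21) and Ccna2 (1.04 and 1.37), with Ccne2 in control and Cdk2 in mutant cells. Lsm10 was the lowest of this list, at -0.35 and -0.38. Of 14 histone chaperones, which hand histones to DNA, 8 passed 1.5-fold in control and 5 in mutant cells, led by Asf1b at 0.84 (0.75 to 0.93) and 1.34 (1.26 to 1.43). The H3-H4 chaperone Nasp had 0.64 and 0.35.

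The mitosis list rose more than the licensing and DNA synthesis lists, so the cells are called here by their rule rather than by a phase. Of 30 mitosis genes 24 were at least 1.5-fold higher in control and 28 in mutant histone-high cells, 1 was 1.5-fold lower in the control library, and the summed level went from 2078 to 3903 CPM (0.91, 0.90 to 0.92) and from 2031 to 4879.8 CPM (1.26, 1.25 to 1.28). Top2a, which untangles DNA, had 609.5 CPM against 207 in control (1.56, 1.52 to 1.59) and 752 against 219 in mutant cells (1.78, 1.75 to 1.81), and after thinning was found in 92.4% and 92.1% of histone-high cells against 42.0% and 40.7% of the rest and 3.51% and 2.18% of the lowest 10% (99.8% and 99.8%, 68.1% and 64.3%, and 15.9% and 15.2% before thinning). The spindle motor Kif11 had 1.62 and 1.88. Outside the list, the genes raised most in both libraries included the mitotic kinase Pbk (1.60 and 2.25), Fbxo5, an inhibitor of the anaphase-promoting complex (1.35 and 1.89), and Esco2, the acetyltransferase that locks cohesin on replicated DNA (1.79 and 2.18). The lowest ratios of the list were those of Ccnb2 and Cdc20 in the control library. Ccnb2, a B-type cyclin, had 33.1 CPM against 49.8 in the control rest (-0.59, -0.73 to -0.45) and 70.4 against 57.2 in the mutant rest (0.30, 0.20 to 0.40), and Cdc20, an activator of the anaphase-promoting complex, had -0.17 (-0.31 to -0.03) and 0.57 (0.46 to 0.68).

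**Figure D3:**
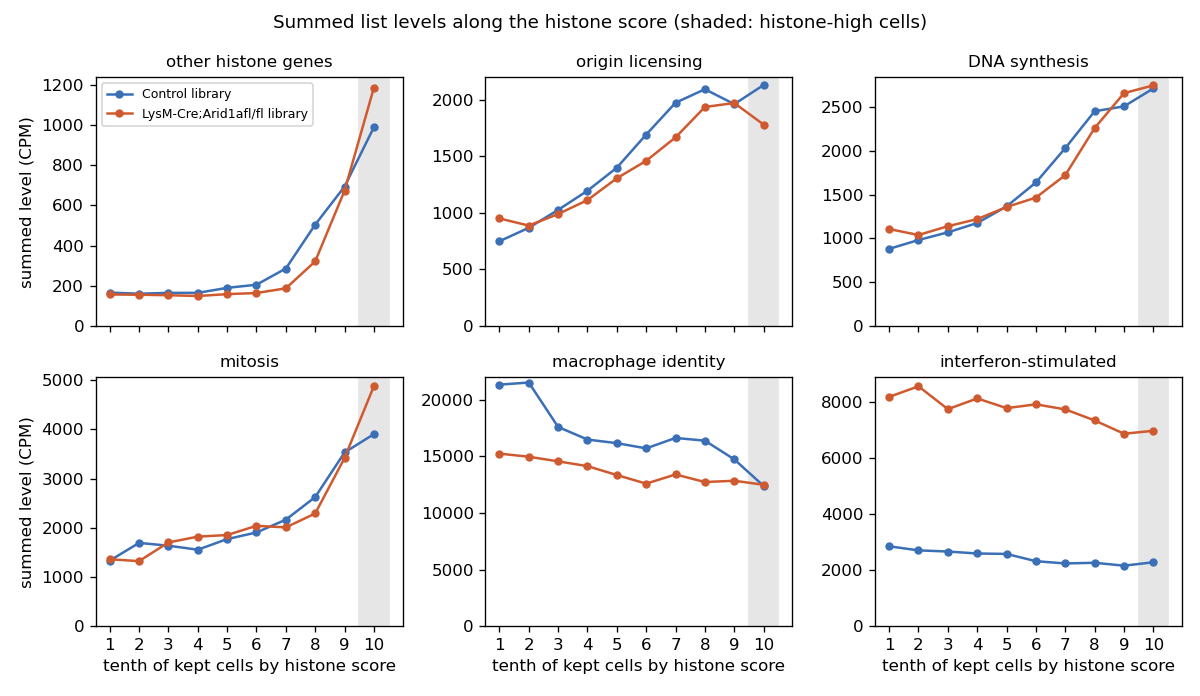
Summed level (CPM) of 6 gene lists in 10 equal bins of the kept cells ordered by histone score, for both libraries, with the histone-high bin shaded. Origin licensing has 2095 CPM in bin 8, 1963 CPM in bin 9 and 2132 CPM in the last bin in the control library. In the mutant library it has 1938 CPM in bin 8, 1973 CPM in bin 9 and 1781.5 CPM in the last bin. Other histone genes and mitosis genes are highest in the last bin, at 989 and 1186 and at 3903 and 4879.8 CPM in the control and mutant library.

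To place the histone-high cells among other cycling cells, the top 10% of each library was also taken by the origin licensing list and by the mitosis list. Histone-high cells overlapped both sets in part, although the mutant interval for the licensing-high set included the 10% that this set is of its library. They shared 96 cells (19.8%, 16.4 to 23.7) with the licensing-high and 89 (18.4%, 15.04 to 22.1) with the mitosis-high set in the control library, and 60 (11.9%, 9.19 to 15.03) and 128 (25.3%, 21.6 to 29.4) in the mutant library, each set being 10% of its library. The licensing-high and mitosis-high sets shared 2 cells in control and 0 of 505 in mutant cells, where a count of 0 allows up to 0.728%. Of the histone-high cells 301 (62.2%) and 317 (62.8%) were in neither of the other sets. The same held for 3882 of all 4848 kept control cells and 4044 of all 5054 kept mutant cells. Histone-high cells, 10% of each library, made up 7.75% and 7.84% of those, so they were outside the other sets less often than kept cells in general.

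Those 301 and 317 cells, histone-high alone, lay between the other sets in the cyclins Ccne2 and Ccna2, which no score had used. Ccne2, a G1/S cyclin, was at 98.6 CPM in cells that were licensing-high alone, 67.9 in histone-high alone and 6.45 in mitosis-high alone in the control library, and at 122, 70.6 and 2.48 in the mutant library. Ccna2, the cyclin of S phase and G2, ran the other way, from 64.5 through 129.8 to 184 CPM in control and from 65.0 through 139 to 230.1 CPM in mutant cells. Ccne1 and Esco2 were highest in the histone-high alone cells. Esco2 had 59.0, 94.99 and 27.0 CPM in control and 54.2, 98.3 and 18.3 CPM in mutant cells, and Rrm2 had 147, 165 and 62.1 and 135, 179 and 43.6.

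**Figure D4:**
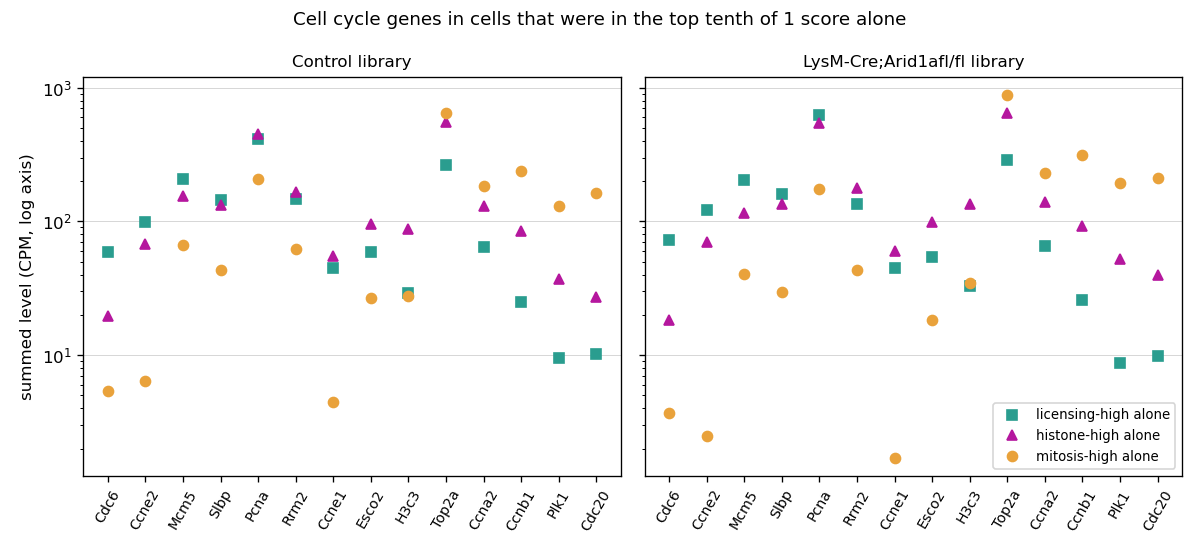
Summed level (CPM, log axis) of cell cycle genes in cells that were in the top 10% of the licensing, the histone or the mitosis score alone, in each library. Cdc6, Mcm5, Top2a, Ccnb1, Plk1 and Cdc20 belong to a list that chose cells, while Ccne2 falls and Ccna2 rises from licensing-high to histone-high to mitosis-high cells, and Esco2 is highest in the histone-high ones.

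Genes of the replication checkpoint and fork repair were mostly higher. Of 18 over 10 CPM, 10 in control and 9 in mutant cells passed 1.5-fold, and none was 1.5-fold lower. The inhibitors of Cdk4 and Cdk6, Cdkn2c and Cdkn2d, were also higher. Cdkn2c went from 19.8 to 35.2 CPM in control (0.83, 0.69 to 0.97) and from 26.3 to 78.8 in mutant cells (1.58, 1.48 to 1.69), and Cdkn2d had 1.16 and 1.67.

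The cells carried transcripts of the macrophage list, with 8892 CPM of Lyz2 (lysozyme) in control and 5039.8 in mutant histone-high cells. Spi1, which encodes the regulator PU.1, had 485 and 543 CPM. Other myeloid cells express both genes too, so they do not by themselves set macrophages apart. Lyz2 alone gave 8892 of the 12388 CPM of the list in control histone-high cells. In the mutant animals Cre is expressed from the Lyz2 locus, so Lyz2 by itself was not compared between the libraries. It is part of the macrophage list sum, whose log2 ratio of mutant over control was 0.01 in histone-high cells and -0.34 in the rest. The median of that ratio over the genes of the list was 0.58 and 0.33. In the control library the macrophage list was lower than in the rest, by 0.48 in summed log2 ratio (12388 against 17292 CPM), and none of 18 genes had a ratio above 0. Fcgr1 and Apoe were among the genes past 1.5-fold downward. In the mutant library the ratio was -0.13 (12495 against 13696 CPM), and no gene passed 1.5-fold in either direction. The median log2 ratio over the genes of the list was -0.40 in control and -0.02 in mutant cells. The complement genes C1qa and C1qb had opposite signs, -0.55 and -0.39 in control and 0.17 (0.10 to 0.24) and 0.10 (0.05 to 0.15) in mutant cells. OC genes other than the 3 used by the rule were slightly lower in sum, at -0.07 (-0.10 to -0.04) and -0.17 (-0.20 to -0.14). Of 7 such genes over 10 CPM, 4 had ratios below 0 in the control library and all 7 in the mutant library. The rule had left cells with 3 or more UMIs of its OC genes out of both groups compared.

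Among the lowest genes in both libraries were Slfn5, an interferon-inducible Schlafen gene, with 32.7 CPM against 82.0 in control (-1.33, -1.46 to -1.19) and 55.3 against 184 in mutant cells (-1.74, -1.85 to -1.63), and Hmox1, which degrades heme, with 114 against 269 (-1.24) and 102 against 200.4 CPM (-0.98). The chemokine Ccl6 had -1.26 and -0.68. Tnfsf12, which encodes the cytokine TWEAK, had -1.16 and -0.79. Mmp12, the macrophage elastase, was far lower in control histone-high cells, 25.2 against 114 CPM (-2.17, -2.33 to -2.02), and less so in mutant ones, 420.2 against 529.9 CPM (-0.33, -0.37 to -0.29).

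Granulocytic transcripts moved with the histone-high cells, above all in the mutant library. The neutrophil list (S100a8, S100a9, Camp, Ngp, Ltf and Retnlg) had 533 CPM in control histone-high cells and 292 in the rest, and 5807 and 1510.3 CPM in the mutant library. Cells with at least 1% of their UMIs in it numbered 3 (0.620%) and 26 (5.15%, 3.39 to 7.45) among the histone-high cells and 0.298% and 1.03% of the rest. Without the 18 control and 95 mutant cells with at least 1% of their UMIs in the neutrophil, stromal or class II list, and with the top 10% taken anew, the neutrophil list stood at 10.4 and 29.3 CPM in the histone-high cells, and the summed log2 ratios were 1.74 and 2.27 for other histone genes, 0.75 and 0.79 for DNA synthesis, 0.91 and 1.28 for mitosis, and -0.48 and -0.11 for macrophage genes. The granulocyte progenitor list (Mpo, Elane, Prtn3 and Ctsg) had 9.97 and 7.72 CPM in control and 165 and 44.0 in mutant histone-high cells and rest. Of the other lists, all 5 erythroid and all 4 mast cell and basophil markers were at 0 in control histone-high cells and 4 of 5 and all 4 in mutant ones, the stromal list was at 0.0717 and 0.150 CPM, and the B cell list and the T and NK cell list stayed under 4 CPM. The class II list, also found in macrophages, was at 23.2 and 117 CPM.

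Between the libraries, histone-high cells differed first in Arid1a itself. It had 71.6 CPM in control and 28.1 in mutant histone-high cells (log2 of mutant over control -1.35, -1.52 to -1.18) and 49.4 and 19.3 in the rest (-1.36, -1.43 to -1.29), and after thinning was found in 31.4% and 10.9% of histone-high cells and in 21.5% and 9.45% of the rest (83.3% and 47.9%, and 63.8% and 34.7%, before thinning). The kit reads the 3′ end, so transcripts of a recombined allele that keep this end are counted. In both libraries Arid1a was higher in histone-high cells than in the rest, at 0.53 (0.44 to 0.63) and 0.54 (0.38 to 0.70), as was the BAF core subunit Smarcc1, at 0.71 and 0.66.

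In the mutant over control comparison of histone-high cells, 14.5% of the 7157 genes were at least 1.5-fold higher and 7.7% at least 1.5-fold lower. In the DNA synthesis list 1 of 28 genes passed, Dck, which salvages deoxycytidine (1.08, and 1.05 in the rest), and the summed log2 ratio was 0.019 (-0.0022 to 0.039). Origin licensing was lower in mutant histone-high cells, at -0.26 (-0.28 to -0.23), with 0 of 21 genes past 1.5-fold, and in the rest at -0.085 (-0.095 to -0.075). Mcm5 had 157 and 112 CPM (-0.48, -0.58 to -0.38). The mitosis list was higher in mutant histone-high cells, at 0.32 (0.31 to 0.34), while in the rest it was at -0.03 (-0.04 to -0.02), and 5 of 30 genes passed 1.5-fold upward, among them Ccnb2 (1.09), Nusap1 (1.00) and Cdc20 (0.88). Mki67 went the other way, with 392 and 259.6 CPM (-0.59, -0.66 to -0.53) in histone-high cells and -0.82 in the rest.

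The level of histone genes outside the score was higher in the mutant histone-high cells, at 0.26 (0.23 to 0.29), and lower in the mutant rest, at -0.27 (-0.29 to -0.25). H2ac10 and H3c3 each had 0.70, with H3c3 at 91.1 and 148 CPM. The members were chosen as the same share of each library and thus at different cutoffs. With the control cutoff applied to both, which leaves 353 mutant cells, the values for mutant over control were 0.43 for other histone genes, 0.39 for mitosis, 0.03 for DNA synthesis and -0.27 for licensing. Either choice of cells rests on a score whose make-up differed. Linker genes held 56.3% of its UMIs in control and 45.4% in mutant histone-high cells. Apart from H1f2, the genes outside the score are core histones, and what this does to either comparison was not tested.

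The interferon-stimulated list was higher in mutant histone-high cells. Of 25 genes 24 were at least 1.5-fold higher, against the background of 14.5%, and Irf9 was the exception at 0.43. The summed level was 2275 CPM in control and 6962 in mutant histone-high cells (1.61, 1.60 to 1.63), nearly as in the rest (1.65, 1.65 to 1.66). Irf7, the interferon regulatory factor of the feedback loop, had 74.0 and 529.8 CPM (2.84, 2.75 to 2.94) and Isg15, a ubiquitin-like modifier, 143 and 547 CPM (1.94, 1.87 to 2.01). Ifit1 differed less in histone-high cells, 1.28 (1.16 to 1.41), than in the rest, 1.94 (1.90 to 1.98), and was lower in mutant histone-high cells than in the mutant rest (134 against 206 CPM). Within each library the list was slightly lower in histone-high cells than in the rest, by 0.11 and 0.15 on the log2 scale.

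Of the genes averaging 20 CPM or more, the highest ratios of mutant over control were those of Ly6i, at 0.932 CPM in control and 78.3 in mutant histone-high cells (6.39), and AW112010, Ifi206, H2-Q7 and Ifi44, at 4.77 to 4.45. Downward they were Emp2, a tetraspan membrane protein, at 99.8 and 2.26 CPM (-5.47), Fxyd2 (-3.62), Dennd5b (-3.32), Uchl1 (-2.94) and Spp1 (-2.52). Spp1, which encodes osteopontin, had 1251 and 217 CPM. All 10 differed in the same direction in the rest, by 3.79 to 4.996 upward and by -2.56 to -4.22 downward. The ribosomal protein list, 80 genes over 10 CPM, was at -0.45 in histone-high cells and -0.34 in the rest.

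**Figure D5:**
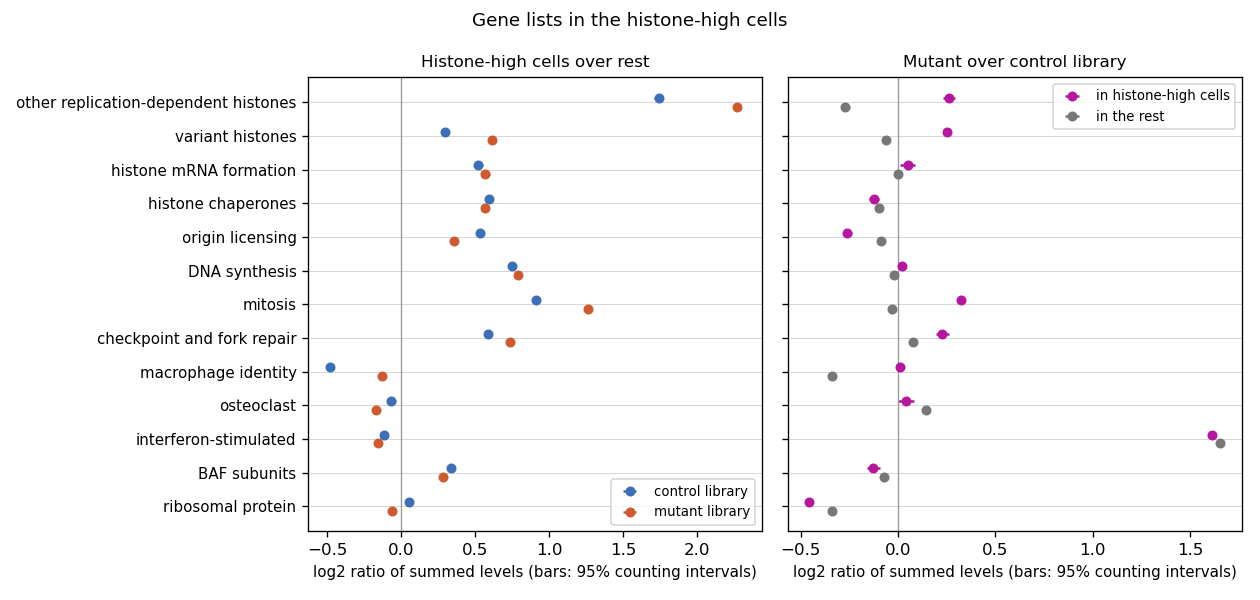
Log2 ratio of the summed level of each gene list, left for histone-high cells over the rest in either library and right for the mutant over the control library in histone-high cells and in the rest, with 95% counting intervals, most of them narrower than the points. Histone, DNA synthesis and mitosis lists lie right of 0 on the left side, and on the right side the interferon-stimulated list stands at 1.61 and 1.65 while DNA synthesis is near 0. The macrophage identity sums include Lyz2, from whose locus Cre is expressed in the mutant animals.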

How the data were processed

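scRNA-Seq was performed on 10x Genomics 3′ libraries, 1 per genotype. The deposited matrices hold unnormalised UMI counts for each gene in each cell, made by the authors (Cell Ranger 6.1.0 in the file headers). The submitters' notes name GRCm39. Whether the counts precede the aggregation named in the methods, which can equalise depth, and whether doublets were removed were not stated. There were 164004706 UMIs over 6455 control barcodes and 131800059 UMIs over 5865 mutant barcodes. Groups follow the genotype in the labels.

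From the counts, UMIs were summed over cells and scaled to CPM (Python 3.11.15, NumPy 2.4.6, SciPy 1.17.1). CPM values carry exact Poisson intervals, log2 ratios exact conditional intervals and shares of cells exact binomial (Clopper-Pearson) intervals, all at 95%. Only the intervals of log2 ratios were tested on simulated data, which were Poisson counts. Counts of genes past 1.5-fold used a mean of at least 10 CPM. Shares of cells with a UMI were read after thinning each cell to 5000 UMIs. Doublets were scored against simulated pairs of barcodes and kept, except in an alternative. Of 32544 gene identifiers 31977 matched GENCODE release M39, from which coordinates, stop codons and stem-loops were taken (GRCm39). Beyond list members, named genes were the 15 highest and 10 lowest ratios shared by both libraries the 5 highest and 5 lowest ratios of mutant over control histone-high cells, and the 5 genes in each direction whose ratio differed most between the libraries, at a mean of at least 20 CPM and without score genes in the first rule. With 1 library per genotype, no p-value was computed. The cells, lists and rules were chosen with earlier results of these data known. Alternatives covered the cutoff, the score, depth, scaling and the removal of doublets or other cell types. Single values of some list members are not reported here.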

Additional observations from a re-analysis of the deposited data

Results flagged for a closer look

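In a few lists and named genes the ratio of histone-high cells over the rest had opposite signs in the libraries, with both counting intervals clear of 0. With 1 library per genotype the difference was not tested. The ribosomal protein list was slightly higher in control histone-high cells (log2 0.052) and slightly lower in mutant ones (-0.063). Chemokine genes were among the named genes: Ccl12 had -0.42 in control cells and 1.02 in mutant cells, and Ccl5 had 0.13 and -1.13. Gbp2, an interferon-inducible GTPase, had 0.36 and -0.50, and Ly6i, at 13 UMIs in control histone-high cells, had -1.15 and 0.25. Emp2 had 0.28 and -0.97, from 30 UMIs in mutant histone-high cells, Nptx1 had 0.44 and -0.86, Uchl1 had 0.17 and -0.21, and Jdp2, a regulator of OC differentiation, had 0.10 and -0.78. F630028O10Rik had -0.93 and 1.03, and the latter became 0.28 once cells of the neutrophil, stromal and class II lists were left out.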

How the results depend on the processing

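All 95 log2 ratios recomputed under other settings kept their direction, and 50 of 106 values in all stayed within the counting interval of the reported value. The ranges over these settings were 1.63 to 1.83 (control) and 2.21 to 2.41 (mutant) for other histone genes, 0.67 to 0.82 and 0.75 to 0.91 for DNA synthesis, 0.84 to 1.00 and 1.18 to 1.39 for mitosis, and 1.51 to 1.67 for interferon-stimulated genes. The values outside the counting intervals follow, and their cause was not tested beyond what each setting changes. Taking the top 5% gave a share of mutant cells at the control cutoff of 4.10%, other histone genes 2.35 (mutant), DNA synthesis 0.75 (mutant) and interferon 1.56. The top 20% gave a share of 12.96%, other histone genes 1.83 (control) and 2.34 (mutant), DNA synthesis 0.82 and 0.91, mitosis 1.00 and 1.18, and interferon 1.64. These shares move because the cutoff does. A score on cells thinned to 5000 UMIs gave other histone genes 1.63 and 2.23 and mitosis 0.84 and 1.22. Totals without mitochondrial and ribosomal protein genes gave a share of 5.72%, other histone genes 1.77 (control), DNA synthesis 0.77 (mutant), mitosis 0.93 (control) and interferon 1.51. The 4 linker histones alone gave a share of 4.39%, other histone genes 1.67 and 2.21, mitosis 0.88 and 1.19, and interferon 1.66. The 4 core histones alone gave a share of 10.1%, DNA synthesis 0.71 (control), mitosis 0.96 (control) and interferon 1.57. Without doublet calls the values were other histone genes 2.32 (mutant), DNA synthesis 0.78 and 0.81, and mitosis 0.95 and 1.29. Choosing on 1 random part of the UMIs and reading the other gave other histone genes 1.70 (control), DNA synthesis 0.81 (mutant) and mitosis 0.87 (control). Equal weight per cell gave other histone genes 1.79 and 2.41, DNA synthesis 0.80 and 0.84, and mitosis 1.00 and 1.39. Relative to the median gene, other histone genes were 1.67 (control), DNA synthesis 0.67 and 0.76, mitosis 0.84 and 1.24, and interferon 1.58. Without cells of the neutrophil, stromal and class II lists interferon was 1.64, and it was 1.64 too with a wider filter on granulocytic cells, which was chosen after seeing the data. So was the control cutoff in both libraries, which gave other histone genes 2.30 (mutant), DNA synthesis 0.76 (mutant) and interferon 1.67.

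Counts of genes past 1.5-fold depend on the filter, which also sets how many genes are tested. At a mean of at least 20 CPM, 5215 genes were tested, against 7157 at 10 CPM. Of these, 119 were lower in control cells, and 256 were higher and 42 lower in mutant cells, against 187, 389 and 77 at 10 CPM. With no filter beyond 1 UMI in each group, 2108 of 14130 genes were higher and 1156 lower in control cells. In mutant cells 2244 of 14236 were higher and 964 lower. For mutant over control in histone-high cells 2833 of 13366 were higher and 1795 lower. The added genes average under 10 CPM. No paired analysis was possible because each genotype has 1 library. Depth limits single genes more than lists, and the choice of the cells by score rests on a median of 63 to 76 UMIs per histone-high cell.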

Other observations

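The rule left out cells with at least 3 UMIs over Ctsk, Mmp9 and Dcstamp, and histone-rich cells were found among them too. Of 1253 such control cells 145, or 11.6% (9.85 to 13.5), had a score at or above the cutoff of their library, and of 258 mutant cells 23 did, or 8.91% (5.74 to 13.1). Their replication-dependent histone genes outside the score stood at 921 and 1114 CPM, against 345 and 291 CPM in the other left-out cells, and their mitosis genes at 3509 and 4189 CPM against 2117 and 2207 CPM. These cells were deep, with medians of 28566 and 29506 UMIs over all left-out cells, against 23407 and 22158 UMIs over the kept cells, and the part of this depth in passing a fixed number of UMIs was not tested.

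OC transcripts were present in these histone-rich cells, in an order that differed between genes and libraries. The OC list had 1503 CPM (1469 to 1538) against 1706 in the control and 979 against 1363 in mutant cells. In the control library Ctsk, the collagen-degrading protease of OCs, had 164 CPM (153 to 176) against 219 (214 to 224), Mmp9 had 166 against 219 CPM, and Nfatc1, the main regulator of OC differentiation, had 116 (107 to 126) against 125 (122 to 129). In the mutant library Ctsk had 332 CPM (291 to 376) against 225 (214 to 236), Mmp9 156 (128 to 188) against 71.6 (65.7 to 77.9), and Nfatc1 59.9 (43.4 to 80.7) against 68.9 (63.2 to 75.1). With 23 mutant cells and 1 library per genotype the opposite order of Ctsk and Mmp9 was not tested, and both genes were used to leave these cells out.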
